A study of Mus musculus with 11 samples.

Results

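Transcripts of 8 CC chemokine genes, Ccl2, Ccl3, Ccl4, Ccl5, Ccl6, Ccl7, Ccl9 and Ccl12, were examined in RNA sequencing of microglia sorted from the brains of mice with amyloid deposition. The 8 genes were taken by name from a table of 55401 genes, and all 8 were among the 20390 genes that passed the filter on low counts. Ccl6 fell in microglia without Tyrobp, and Ccl3 also fell and Ccl12 rose when the Tyrobp comparisons were averaged. Neither Ccl3 nor Ccl12 passed in either of the averaged comparisons alone. Both calls were lost in some alternative fits, among them those with a covariate for neutrophil or immediate early transcripts. Levels of both transcript sets largely went with Tyrobp genotype, so these fits cannot separate them from Tyrobp loss. No member passed the test for heterozygous loss of Inpp5d against NLGF, where 0% of all tested genes passed.

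All mice were C57BL/6, were 9 to 10 months old and carried NLGF, a knock-in of a humanised and mutated App gene that gives amyloid plaques. The NLGF group had no other allele and held 3 libraries. The other groups were Inpp5d+/-;NLGF with 3 libraries, Tyrobp-/-;NLGF with 2, and Tyrobp-/-;Inpp5d+/-;NLGF with 3, the last called the compound mutant. Inpp5d encodes SHIP1, a lipid phosphatase that removes products of PI3-kinase. The product of Tyrobp is DAP12, a signalling adaptor of TREM2 and other surface receptors. The 6 libraries with no Tyrobp deletion are written Tyrobp+/+ and the other 5 Tyrobp-/-. Live cells positive for CD11b and CD45 were sorted as microglia, a gate that other myeloid cells can also enter. The link from libraries to animals or litters is not stated in the labels. A p-value here therefore reflects how far these libraries differ among themselves, which may be technical. Sample titles of all Tyrobp-/- libraries carry lower numbers than those of the other libraries. What the numbers follow is not stated, and whatever it is and Tyrobp loss cannot be told apart.

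CC chemokines are small secreted proteins, named for a pair of adjacent cysteines, that draw leukocytes along a gradient by way of G-protein-coupled receptors. Ccl2, Ccl7 and Ccl12 act on Ccr2 and recruit monocytes, Ccl3 and Ccl5 act on Ccr1 among other receptors, and Ccl6 and Ccl9 are ligands of Ccr1 found in rodents. Ccl4 is a close relative of Ccl3. In the brain, microglia make Ccl3 and Ccl4, and Ccl6 is among the genes raised in microglia of amyloid models.

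All 8 genes lie on mouse chromosome 11, and the positions of the deposited table are given here in GRCm38. Ccl2 (chr11:82035571-82037453), Ccl7 (chr11:82045712-82047525) and Ccl12 (chr11:82101845-82103400) lie together on the + strand. After a gap of 1422377 bases follow Ccl5 (chr11:83525778-83530518), Ccl9 (chr11:83572919-83578636), Ccl6 (chr11:83587882-83593087) and Ccl3 (chr11:83647844-83649355) on the - strand, and Ccl4 (chr11:83662584-83664683) on the + strand. Ccl9 and Ccl6 are 9245 bases apart, and Ccl3 and Ccl4 are 13228 bases apart. In the table Gm17268 overlaps the span of Ccl2 and E230016K23Rik that of Ccl6, but neither overlaps their exons. How reads with several positions were counted is not given in the sources used here, so reads shared between related members could be split or lost.

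RefSeq promoter sequences in GRCm38.p6 were at hand for 4 of the 8 genes, Ccl6, Ccl9, Ccl3 and Ccl12. They are shown because Ccl6 and Ccl9 are neighbours whose transcript levels moved apart, and because Ccl3 and Ccl12 passed a test in opposite directions. Each line gives the 250 bases before the transcription start, 5′ to 3′ on the strand of the gene, with letters matching a searched motif in capitals. The positions are chr11:83593088-83593337 (- strand) for Ccl6, chr11:83578637-83578886 (- strand) for Ccl9, chr11:83649379-83649628 (- strand) for Ccl3 and chr11:82101595-82101844 (+ strand) for Ccl12.
Ccl6: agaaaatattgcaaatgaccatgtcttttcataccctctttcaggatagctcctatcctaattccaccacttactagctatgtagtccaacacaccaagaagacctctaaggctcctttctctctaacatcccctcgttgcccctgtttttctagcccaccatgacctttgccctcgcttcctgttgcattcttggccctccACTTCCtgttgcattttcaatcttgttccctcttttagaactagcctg
Ccl9: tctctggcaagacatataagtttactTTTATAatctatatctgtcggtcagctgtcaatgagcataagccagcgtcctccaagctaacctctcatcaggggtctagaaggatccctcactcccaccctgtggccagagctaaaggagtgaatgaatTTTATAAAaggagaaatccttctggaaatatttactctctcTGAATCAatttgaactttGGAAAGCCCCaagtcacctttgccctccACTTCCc
Ccl3: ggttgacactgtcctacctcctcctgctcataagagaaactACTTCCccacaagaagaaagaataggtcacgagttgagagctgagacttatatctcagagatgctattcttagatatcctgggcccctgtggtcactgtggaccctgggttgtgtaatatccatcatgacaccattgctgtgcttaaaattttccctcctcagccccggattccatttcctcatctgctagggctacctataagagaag
Ccl12: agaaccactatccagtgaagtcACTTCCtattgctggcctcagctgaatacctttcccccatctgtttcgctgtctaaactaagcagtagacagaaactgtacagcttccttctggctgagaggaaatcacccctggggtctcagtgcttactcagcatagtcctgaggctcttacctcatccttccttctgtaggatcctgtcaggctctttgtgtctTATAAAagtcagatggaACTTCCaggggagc

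The windows searched ran from 250 bases before to 50 bases after the start, on both strands, and the shares are of 32851 promoter windows of the same length. The ETS core GGAAGT, found in 23.8% of all windows and part of the longer motif GAGGAAGT of the myeloid factor PU.1, was present in all 4, read on the reverse strand as ACTTCC. It began 48 bases before the start in Ccl6, 7 in Ccl9 and 209 in Ccl3, and 228 and 14 bases before it in Ccl12. The full GAGGAAGT was in none of the 4 and in 3.2% of all windows. Ccl9 also held an AP-1 match (TGANTCA, 7.81% of windows) 53 bases and an NF-kB match (8.46% of windows) 35 bases before the start. TATAAA, in 13.6% of windows, was found 31 bases before the start of Ccl12, on the strand of the gene. In Ccl9 it began 92 bases before the start on the strand of the gene. Read on the reverse strand as TTTATA, it began 224 and 94 bases before the start of Ccl9. The matches at 94 and 92 bases overlap. TTGCNNAA (C/EBP, 10.8% of windows), the interferon-response element ISRE (3.44%) and CACGTG (E-box, 7.15%) had no match in the 4 windows. The longest run shared by Ccl6 and Ccl9 was gccctccacttcc, 13 bases that hold their ETS core, whereas the other pairs shared 7 to 9 bases. These are letter matches only, and no binding was measured.

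Libraries held between 29490567 and 66637052 counts, with 20203 to 22662 genes detected in each. All 12 microglial markers were detected in every group, with a summed level of 49360 to 61190 CPM, the usual unit of read counts set relative to library size, here with TMM scaling. Tyrobp itself was at 1952 to 2560 CPM in Tyrobp+/+ and 3.22 to 8.94 CPM in Tyrobp-/- libraries. Inpp5d was at 318 ± 116 CPM (SD, n = 3) in NLGF and 230 ± 45.6 CPM (SD, n = 3) in Inpp5d+/-;NLGF, which overlapped, and its difference did not pass (edgeR adjusted p = 0.952). In the Tyrobp-/- pair it was at 448 ± 1.26 CPM (SD, n = 2) and 236 ± 40.4 CPM (SD, n = 3), which did not overlap (adjusted p = 1). Tyrobp-/- libraries stood apart in other transcripts. Summed neutrophil markers reached 364 to 571 CPM in Tyrobp+/+, 4737 and 19400 CPM in Tyrobp-/-;NLGF, and 493, 10200 and 2660 CPM in compound mutant replicates 1 to 3, with 9 of 12 markers rising in the averaged Tyrobp comparison and none at 0 in a Tyrobp-/- group. Retnlg was at 0 in NLGF and Cxcr2 at 0 in Inpp5d+/-;NLGF. Summed monocyte markers were at 28.9 to 103 CPM in Tyrobp+/+, 121 to 1096 CPM in the compound mutant and 512 and 2020 CPM in Tyrobp-/-;NLGF, with 4 of 12 rising and F10 at 0 in NLGF. Summed immediate early genes, which also respond to cell dissociation, were at 2572 to 7614 CPM in Tyrobp+/+ and 8182 to 11890 CPM in Tyrobp-/-, with 12 of 23 rising and Egr2 falling.

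The 8 genes differed widely in abundance, and Ccl6 was the most abundant per length in Tyrobp+/+ but not in Tyrobp-/- microglia. Per kilobase of exon, Ccl6 averaged 1363 ± 84.0 CPM per kb (SD, n = 3) in NLGF, ahead of Ccl4 at 478 ± 66.6, Ccl3 at 310 ± 12.8, Ccl12 at 217 ± 21.4 and Ccl9 at 107 ± 19.5. Ccl2 followed at 12.9 ± 0.687, Ccl5 at 3.54 ± 3.61 and Ccl7 at 1.66 ± 2.03 CPM per kb (SD, n = 3). The order was the same in Inpp5d+/-;NLGF. In Tyrobp-/-;NLGF, Ccl4 at 632 ± 98.6 CPM per kb (SD, n = 2) led Ccl6 at 415 ± 10.7, and Ccl12 at 304 ± 25.7 stood above Ccl3 at 198 ± 1.89. The compound mutant had this second order too, with Ccl4 at 676 ± 20.4, Ccl6 at 552 ± 31.4 and Ccl12 at 490 ± 139 CPM per kb (SD, n = 3). Among the 20390 tested genes, Ccl6 ranked 39 by CPM per kb in NLGF and 43 in Inpp5d+/-;NLGF, and 123 and 90 in Tyrobp-/-;NLGF and the compound mutant. Ccl12 moved from rank 258 in NLGF to rank 165 in Tyrobp-/-;NLGF and to rank 102 in the compound mutant.

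**Figure D1:**
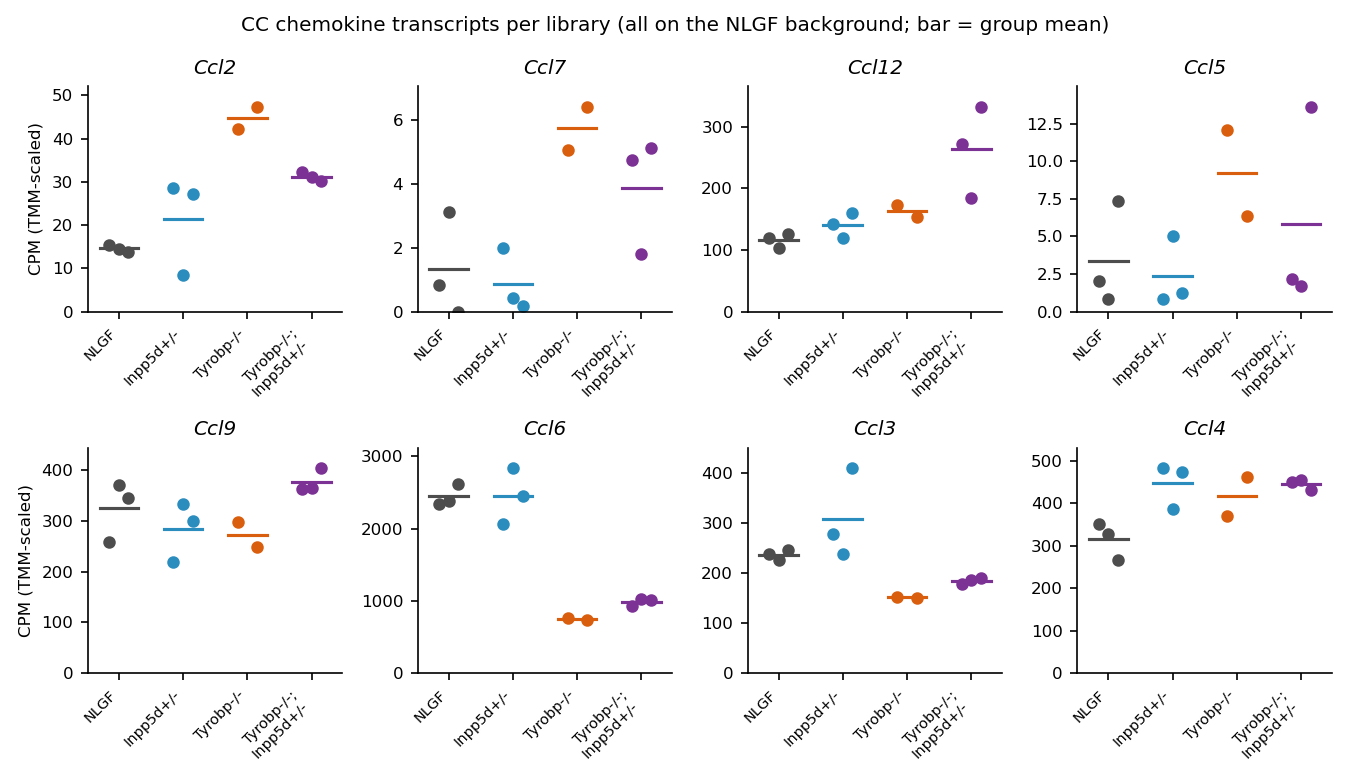
Level of each of the 8 CC chemokine genes in CPM, TMM-scaled and on a linear axis that starts at 0 (y), in the 4 genotypes (x), where each point is 1 library and each bar the group mean. Ccl6 sits between 2070 and 2839 CPM in the 6 Tyrobp+/+ libraries and between 732 and 1033 CPM in the 5 Tyrobp-/- libraries, while Ccl7 and Ccl5 stay under 14 CPM throughout.

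Over the 8 genes, Tyrobp loss gave calls in both directions and left neighbouring genes on different sides of the threshold. In Tyrobp-/-;NLGF against NLGF, 1 of 8 genes was called, Ccl6, where 0.863% of all tested genes were called. In the compound mutant against Inpp5d+/-;NLGF it was again Ccl6 alone, with a background of 0.897%. In the averaged comparison Ccl3 and Ccl6 fell and Ccl12 rose, with a background of 4.75%, of which 2.08% of genes were higher and 2.66% lower. In the compound mutant against NLGF, Ccl6 fell and Ccl12 rose, with a background of 0.873%. The median log2 fold change over the 8 genes was 0.45 in the averaged comparison, beside 0.02 over all tested genes, with 6 positive and 2 negative values.

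Groups that do not overlap were counted beside the tests. Across the Tyrobp classes, 6 libraries against 5, Ccl2 was higher in every Tyrobp-/- library, as were 2.7% of all genes, and Ccl6 and Ccl3 were lower, as were 3.47% of all genes. Against NLGF alone, 4 genes (Ccl2, Ccl4, Ccl7 and Ccl12) were higher in both Tyrobp-/-;NLGF libraries, where the background was 15.6%, and 2 (Ccl6 and Ccl3) were lower, where it was 14%. Separation of groups of 2 and 3 libraries was thus common over all genes. Below, it is also described for other pairs of groups without a share over all genes. There it only describes the libraries and marks no trait of these members.

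**Figure D2:**
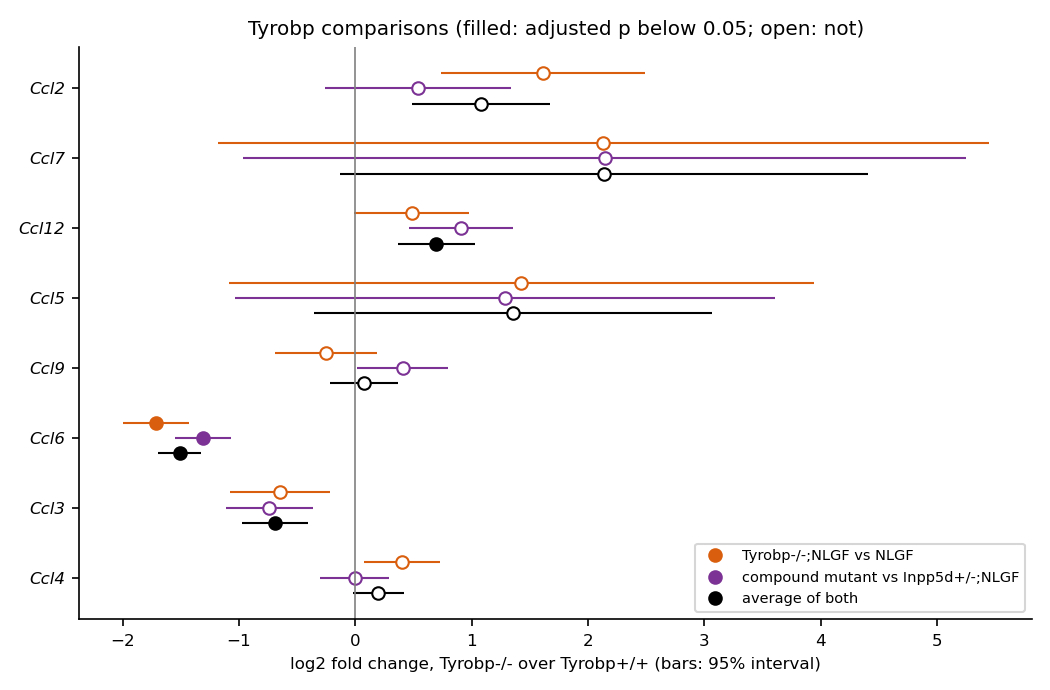
Log2 fold change of Tyrobp-/- over Tyrobp+/+ (x, bars are 95% intervals of the edgeR fit) for the 8 genes (y), in Tyrobp-/-;NLGF against NLGF, in the compound mutant against Inpp5d+/-;NLGF and in their average, where filled points have an adjusted p below 0.05. Ccl6 is filled in all 3, at -1.71, -1.31 and -1.51, Ccl3 and Ccl12 only in the average, and the intervals of Ccl5 and Ccl7 include 0.

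Of the rodent Ccr1 ligands Ccl6 and Ccl9, Ccl6 was the member with the clearest change. Its level was 2346, 2376 and 2621 CPM in the NLGF replicates 1 to 3, and 2070, 2839 and 2452 CPM in Inpp5d+/-;NLGF. It was 759 and 732 CPM in Tyrobp-/-;NLGF, and 927, 1033 and 1014 CPM in the compound mutant. Every Tyrobp-/- library lay below every Tyrobp+/+ library, the groups with Tyrobp overlapped each other, and all 3 compound mutant libraries lay above both Tyrobp-/-;NLGF libraries. Ccl6 fell 3.28-fold in Tyrobp-/-;NLGF against NLGF (log2 fold change -1.71, SE 0.127, adjusted p = 0.000379). The fall was 2.48-fold in the compound mutant against Inpp5d+/-;NLGF (log2 fold change -1.31, SE 0.108, adjusted p = 0.00118). That comparison shares no library with the first, but both come from 1 fit over 11 libraries with a shared estimate of spread. Averaged over the Inpp5d genotypes the log2 fold change was -1.51 (SE 0.0835, adjusted p = 2.65e-05). In each of these comparisons, and in the compound mutant against NLGF (-1.30, SE 0.108, adjusted p = 0.00121), Ccl6 ranked 6 among the 20390 genes by p. In bulk libraries fewer cells of a type that makes Ccl6 and less Ccl6 RNA per cell cannot be told apart.

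The higher Ccl6 level in the compound mutant than in Tyrobp-/-;NLGF did not pass (log2 fold change 0.41, SE 0.121, unadjusted p = 0.00685, adjusted p = 1), nor did the interaction of Tyrobp and Inpp5d (0.41, SE 0.16, unadjusted p = 0.0298, adjusted p = 1). Summed immediate early genes were higher in every Tyrobp-/- library than in every Tyrobp+/+ library. Summed neutrophil markers were higher in all Tyrobp-/- libraries but compound mutant replicate 1. That library had 493 CPM of them, within the Tyrobp+/+ range of 364 to 571 CPM, and Ccl6 at 927 CPM. Single markers of the list differed in it. S100a8 was at 94 CPM, above the 0.24 to 80.9 CPM of the Tyrobp+/+ libraries. S100a9, Ngp, Camp and Lcn2 also exceeded all Tyrobp+/+ libraries there, while Ltf, Ly6g, Retnlg and Cxcr2 did not. With the mean neutrophil marker level as a covariate the averaged log2 fold change of Ccl6 was -1.59 (adjusted p = 0.0119), and with the immediate early level it was -1.34 (adjusted p = 0.00243). Without Tyrobp-/-;NLGF replicate 1 and compound mutant replicate 2, the libraries with most of the neutrophil transcript S100a8, it was -1.54 (adjusted p = 0.00214).

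Ccl9, the neighbour of Ccl6 and its close relative, was at 258, 371 and 346 CPM in NLGF and at 220, 333 and 300.5 CPM in Inpp5d+/-;NLGF. It was at 298 and 248 CPM in Tyrobp-/-;NLGF and at 363, 365 and 405 CPM in the compound mutant. The first 3 groups overlapped, and the compound mutant lay above both single mutants but overlapped NLGF. The differences did not pass in Tyrobp-/-;NLGF against NLGF (log2 fold change -0.25, SE 0.197, adjusted p = 0.688) or in the compound mutant against Inpp5d+/-;NLGF (0.41, SE 0.175, adjusted p = 0.356). The averaged difference was 0.08 with a 95% interval of -0.22 to 0.37 (adjusted p = 0.826).

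The ratio of Ccl6 to Ccl9 within a library, per kilobase, separated the Tyrobp genotypes. It was 15.4, 10.8 and 12.8 in NLGF and 16, 14.5 and 13.8 in Inpp5d+/-;NLGF. It was 4.32 and 5.01 in Tyrobp-/-;NLGF and 4.34, 4.81 and 4.25 in the compound mutant. All 5 Tyrobp-/- libraries were thus below all 6 Tyrobp+/+ libraries, with medians of 4.34 and 14.2. The ratio does not depend on library scaling, and it was not tested.

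Ccl3 (MIP-1 alpha), an inflammatory attractant of myeloid cells, was at 239, 227 and 246 CPM in NLGF and at 278, 239 and 411 CPM in Inpp5d+/-;NLGF. It was at 153 and 151 CPM in Tyrobp-/-;NLGF and at 179, 186 and 192 CPM in the compound mutant. The Tyrobp-/- libraries were all below the Tyrobp+/+ libraries, and Inpp5d+/-;NLGF replicate 3 stood highest. Ccl3 fell in the averaged Tyrobp comparison (log2 fold change -0.69, SE 0.127, adjusted p = 0.0154). Neither part passed alone, at -0.65 (SE 0.191, adjusted p = 0.176) against NLGF and -0.74 (SE 0.168, adjusted p = 0.0884) against Inpp5d+/-;NLGF. The averaged call was lost without Tyrobp-/-;NLGF replicate 1 (adjusted p = 0.0762) or replicate 2 (0.0739), and without the 2 libraries with most S100a8 (0.139). It was also lost with the neutrophil covariate (-0.90, SE 0.236, adjusted p = 0.252) and the immediate early covariate (-0.66, SE 0.214, adjusted p = 0.216). Both SEs were larger than the 0.127 without a covariate. The log2 fold change stayed negative in all 21 alternatives.

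Ccl4 (MIP-1 beta), which lies next to Ccl3 and is read from the opposite strand, was at 353, 327 and 267 CPM in NLGF and at 484, 387 and 473 CPM in Inpp5d+/-;NLGF. It was at 371 and 463 CPM in Tyrobp-/-;NLGF and at 451, 456 and 431 CPM in the compound mutant. NLGF was the lowest group and did not overlap any of the others, which overlapped each other. Ccl4 did not pass against NLGF in Tyrobp-/-;NLGF (log2 fold change 0.40, SE 0.147, adjusted p = 0.292), in the compound mutant (0.50, SE 0.132, adjusted p = 0.145) or in Inpp5d+/-;NLGF (0.50, SE 0.132, adjusted p = 0.952). These 3 comparisons share the NLGF libraries. Between the compound mutant and Inpp5d+/-;NLGF the difference was -0.01 with a 95% interval of -0.30 to 0.29.

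Ccl4 and Ccl3 therefore stood in different proportion by Tyrobp genotype. The ratio of Ccl4 to Ccl3 per kilobase was 1.71, 1.67 and 1.26 in NLGF and 2.02, 1.88 and 1.34 in Inpp5d+/-;NLGF. It was 2.82 and 3.57 in Tyrobp-/-;NLGF and 2.93, 2.84 and 2.61 in the compound mutant. The Tyrobp-/- range, 2.61 to 3.57, lay above the Tyrobp+/+ range, 1.26 to 2.02.

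**Figure D3:**
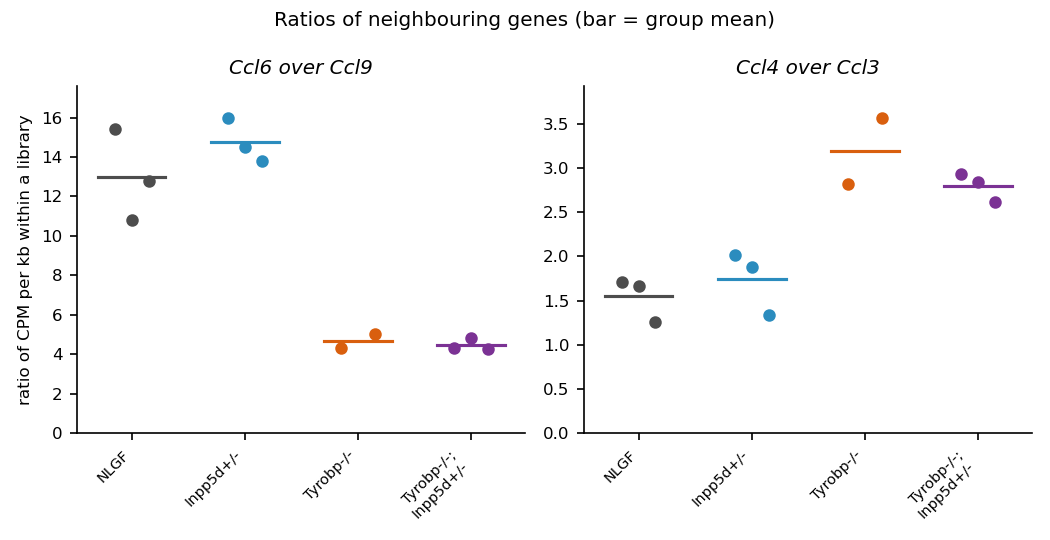
Ratio of CPM per kb within each library (y, linear from 0) for the neighbouring pairs Ccl6 over Ccl9 and Ccl4 over Ccl3, by genotype (x), where points are libraries and bars group means. Ccl6 over Ccl9 is 4.25 to 5.01 in Tyrobp-/- and 10.8 to 16 in Tyrobp+/+ libraries, and Ccl4 over Ccl3 is 2.61 to 3.57 and 1.26 to 2.02.

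Ccl5 (RANTES), a chemokine typical of T and NK cells, was rare and uneven. It was at 2.02, 0.834 and 7.34 CPM in NLGF and at 0.838, 5.04 and 1.27 CPM in Inpp5d+/-;NLGF. It was at 12.1 and 6.33 CPM in Tyrobp-/-;NLGF and at 2.20, 1.69 and 13.6 CPM in the compound mutant. Tyrobp-/-;NLGF lay above Inpp5d+/-;NLGF, every other pair of groups overlapped, and 1 library stood above the rest in each of the groups with 3. The averaged Tyrobp difference was 1.36 with a 95% interval of -0.35 to 3.07 (adjusted p = 0.386). Summed lymphocyte and NK cell markers were at 2.73 to 13.1 CPM over all libraries, with Cd3e, Cd3g, Ncr1 and Ms4a1 among those at 0 in every group. Their part in the level of Ccl5 was not tested.

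Of the Ccr2 ligands, Ccl12 (MCP-5) was at 120, 104 and 126 CPM in NLGF and at 142, 119 and 160 CPM in Inpp5d+/-;NLGF. It was at 173 and 153 CPM in Tyrobp-/-;NLGF and at 272, 184 and 333 CPM in the compound mutant. Both Tyrobp-/-;NLGF libraries were above all NLGF libraries, and the compound mutant was above every other group. Ccl12 rose in the averaged Tyrobp comparison (log2 fold change 0.70, SE 0.149, adjusted p = 0.0296) and in the compound mutant against NLGF (1.17, SE 0.202, adjusted p = 0.0325). It did not pass in Tyrobp-/-;NLGF against NLGF (0.48, SE 0.221, adjusted p = 0.424) or in the compound mutant against Inpp5d+/-;NLGF (0.91, SE 0.201, adjusted p = 0.08). Both calls were near the threshold. The averaged call was kept in 3 of 11 fits that leave out 1 library, those without Inpp5d+/-;NLGF replicate 3 and compound mutant replicates 2 and 3. The call against NLGF was kept in 3 of 11, those without Inpp5d+/-;NLGF replicates 2 and 3 and compound mutant replicate 2. Both were lost with the neutrophil covariate (adjusted p = 0.427 and 0.226) and the immediate early covariate (0.307 and 0.25), and the call against NLGF also in a fit on those groups alone (0.102). Over all 21 alternatives the log2 fold changes ran from 0.59 to 0.80 and from 0.97 to 1.38.

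Ccl2 (MCP-1), the best known monocyte attractant, was at 15.4, 14.6 and 13.9 CPM in NLGF and at 28.7, 8.60 and 27.3 CPM in Inpp5d+/-;NLGF. It was at 42.2 and 47.4 CPM in Tyrobp-/-;NLGF and at 32.3, 31.2 and 30.2 CPM in the compound mutant. All Tyrobp-/- libraries lay above all Tyrobp+/+ libraries, Tyrobp-/-;NLGF lay above the compound mutant, and Inpp5d+/-;NLGF spread on both sides of NLGF. The averaged Tyrobp difference was 1.08 (SE 0.266, adjusted p = 0.0503) and did not pass. It was 1.62 (SE 0.393, adjusted p = 0.107) against NLGF and 0.54 (SE 0.356, adjusted p = 0.55) against Inpp5d+/-;NLGF. Without Inpp5d+/-;NLGF replicate 2, the library with the least Ccl2, the averaged difference was 0.89 (SE 0.102, adjusted p = 0.00375). Ccl2 also passed in the averaged comparison with RLE scaling, the CPM filter, DESeq2 and limma-voom, so 5 of 21 alternatives called it.

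Ccl7 (MCP-3) was the rarest member. It was at 0.849, 3.14 and 0 CPM in NLGF and at 2.00, 0.442 and 0.173 CPM in Inpp5d+/-;NLGF. The 0 counts of NLGF replicate 3 allow up to 0.0477 CPM, a limit of 3 counts that covers counting error only. It was at 5.08 and 6.44 CPM in Tyrobp-/-;NLGF and at 4.75, 1.80 and 5.13 CPM in the compound mutant. Tyrobp-/-;NLGF stood above both Tyrobp+/+ groups, and compound mutant replicate 2 overlapped them. The averaged Tyrobp difference was 2.14 with a 95% interval of -0.13 to 4.41 (adjusted p = 0.292).

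The make-up of the chemokine transcripts differed with Tyrobp. Ccl6 took 44.1% to 57.1% of the summed CPM per kb of the 8 genes in Tyrobp+/+ libraries and 23.6% to 28.7% in Tyrobp-/- libraries. Ccl12 took 7.83% to 10.1% and 16.5% to 27.3%, and Ccl4 took 15.8% to 28% and 28.8% to 40.6%. None of these 3 pairs of ranges overlapped. Ccl3 kept overlapping shares of 11.1% to 17.6% and 11.03% to 12.2%. The summed level itself was 2449 to 2555 CPM per kb in NLGF, 2613 to 3041 in Inpp5d+/-;NLGF, 2004 to 2267 in the compound mutant and 1660 to 1730 in Tyrobp-/-;NLGF, and no group overlapped another. Shares of a sum are tied to each other, and these were not tested.

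**Figure D4:**
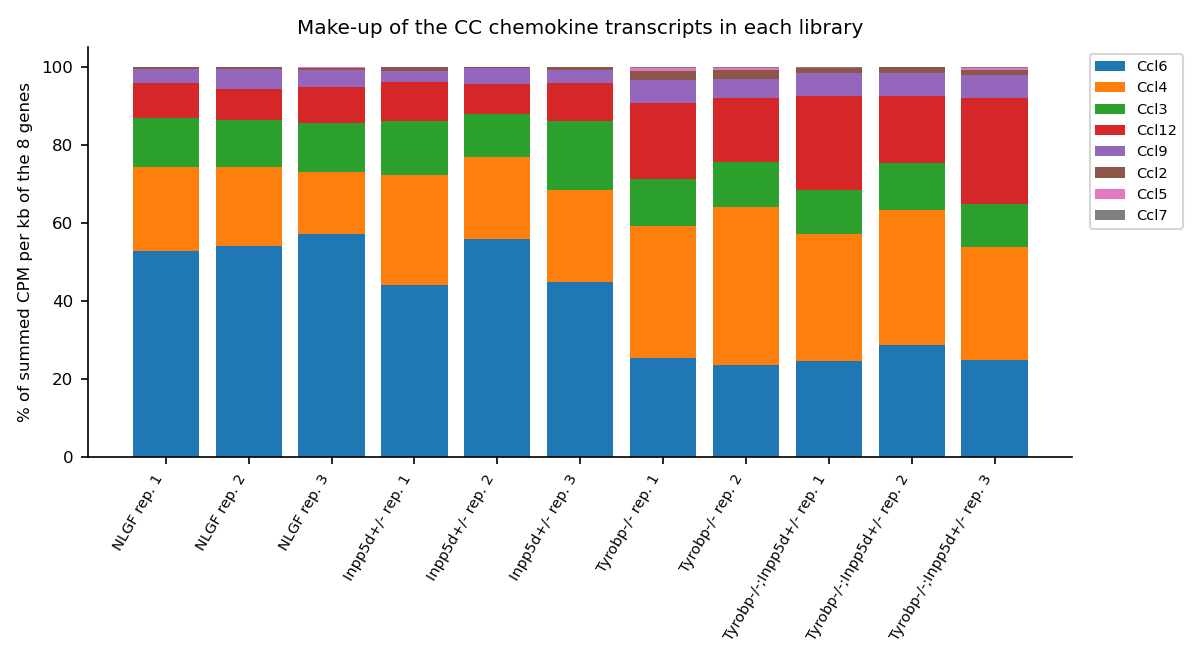
Share of each gene in the summed CPM per kb of the 8 CC chemokine genes (y, percent) in each of the 11 libraries (x). Ccl6 fills 44.1% to 57.1% of the bar in Tyrobp+/+ libraries and 23.6% to 28.7% in Tyrobp-/- libraries, where Ccl4 has the widest band.

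For heterozygous loss of Inpp5d no CC chemokine gene passed the edgeR test. Against NLGF, Inpp5d+/-;NLGF had 0 of 8 genes called, as did 0% of all genes, and 2 of 8 at an unadjusted p under 0.05 (Ccl4 and Ccl3, background 4.66%). Ccl4 ranked 29 among the 20390 genes by p in that comparison (unadjusted p = 0.00357, adjusted p = 0.952), and it was the only member whose libraries did not overlap, beside 3.64% of all genes higher without overlap. In the compound mutant against Tyrobp-/-;NLGF, 0 of 8 genes were called, beside 0.00981% of all genes. Ccl6 (0.41), Ccl9 (0.47) and Ccl12 (0.69) had an unadjusted p under 0.05, where the background was 4.08%. Averaged over Tyrobp genotypes, 0 of 8 were called, beside 0% of all genes, and Ccl12 (0.48), Ccl4 (0.30), Ccl3 (0.34) and Ccl6 (0.21) had an unadjusted p under 0.05, where the background was 5.16%. The interaction gave 0 of 8, beside 0% of all genes, and Ccl6 and Ccl9 at an unadjusted p under 0.05 with a background of 4.7%. DESeq2 also called 0 of the 8 in each of these 4 comparisons, where it called 29, 50, 55 and 36 of all genes. Limma-voom called 0 of the 8 as well, where it called 0, 0, 1 and 0 of all genes. With so few genes called, 0 of 8 says little about the members.

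Chemokine receptor genes were read from the same libraries in the averaged Tyrobp comparison. Ccr2, the monocyte receptor of Ccl2, Ccl7 and Ccl12, was at 1.84 to 16.8 CPM in Tyrobp+/+ libraries and at 9.49 to 105 CPM in Tyrobp-/- libraries, which overlapped (log2 fold change 2.51, SE 0.71, adjusted p = 0.08). Ccr1, the receptor of Ccl6 and Ccl9, was at 5.02 to 48.1 CPM and 27.3 to 68.8 CPM (1.43, SE 0.551, adjusted p = 0.19). Monocyte and neutrophil markers rose in the same comparison, as given above, and their part in the receptor levels was not tested. Ccr2 is itself on the monocyte list, so the summed monocyte level includes it. Ccrl2, a receptor that binds chemerin without signalling, was at 69.7 to 156 CPM over all libraries and did not pass (0.06, SE 0.211, adjusted p = 0.94).

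**Figure D5:**
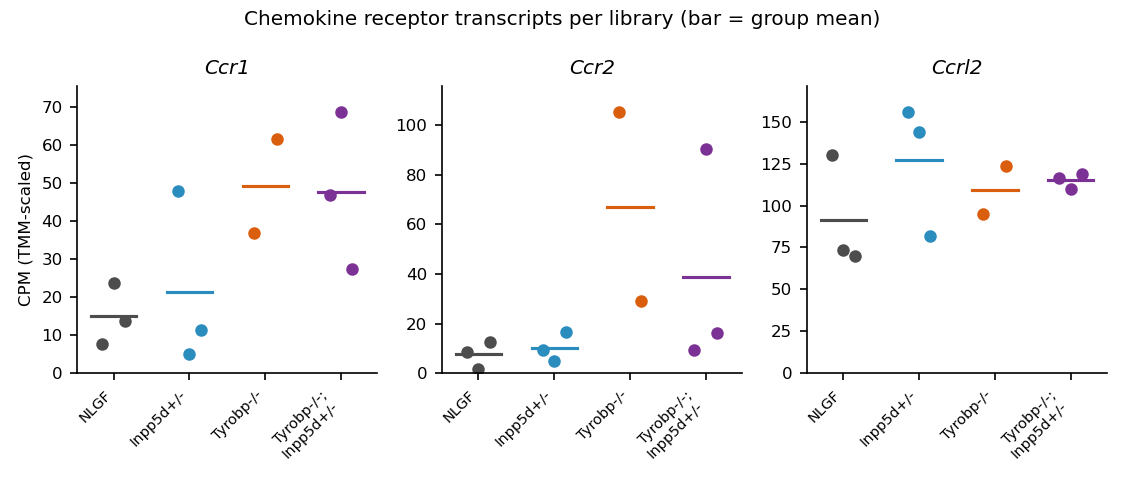
Level in CPM, TMM-scaled (y, linear from 0), of the receptors Ccr1, Ccr2 and Ccrl2 in the 4 genotypes (x), where points are libraries and bars group means. Ccr1 is at 5.02 to 48.1 CPM in Tyrobp+/+ and 27.3 to 68.8 CPM in Tyrobp-/- libraries, and all 3 receptors overlap between the Tyrobp classes.

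Among 13 other CC ligand genes, 6 were tested and none passed in any comparison. Ccl1, Ccl20, Ccl21a, Ccl26 and Ccl28 had 0 counts in all 11 libraries. Ccl24 and Ccl25 were the highest, at no more than 8.65 and 8.61 CPM. The 8 members held most counts on CC ligand genes, with summed levels of 1807 to 3932 CPM beside 8.46 to 19.5 CPM for the other 13.

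Genes that act on chemokine transcription and mRNA stability were read from lists of 18 and 7 genes. Of the NF-kB subunits and inhibitors, Nfkb1, which encodes the p50 subunit, rose in the averaged Tyrobp comparison (log2 fold change 0.62, SE 0.118, adjusted p = 0.0173). Nfkbid, a nuclear inhibitor, fell (-1.80, adjusted p = 0.0139), as did Ikbkb, a kinase of the inhibitor proteins (-0.52, adjusted p = 0.0348), and the other 15 did not pass. Of the mRNA decay genes, Zfp36, which encodes tristetraprolin, a protein that binds AU-rich elements and speeds decay of cytokine mRNAs, rose in the averaged comparison (0.97, SE 0.195, adjusted p = 0.0229) and in the compound mutant against NLGF (1.41, SE 0.266, adjusted p = 0.0461), and the other 6 did not pass. Zfp36 is itself an immediate early gene, and 12 of 23 genes of that list rose in the same comparison.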

How the data were processed

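RNA of flow-sorted microglia in 11 libraries was sequenced after SMART-Seq v4 cDNA synthesis, which does not mark strand, per the labels' protocols. The authors deposited whole-number read counts per gene, with no normalisation, and the summed exon length of each gene. STAR 2.7.3a, featureCounts 1.6.4 and the builds GRCm38.p6 and mm10 are named per the submitters' processing notes. Not given in the sources used here were the annotation release, the strand setting and the use of multi-mapping reads.

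Groups came from the genotype label, and replicate numbers only name libraries. From the counts, filterByExpr (minimum 10, total 15) kept 20390 of 55401 genes, TMM set the scaled library sizes used for CPM, and edgeR 4.0.16 (R 4.3.3) fitted 1 coefficient per group over 11 libraries with a quasi-likelihood test. Adjusted p is the Benjamini-Hochberg value over all tested genes in a comparison, called under 0.05. The averaged comparison is the mean of both Tyrobp contrasts. CPM was divided by deposited exon length where genes were compared. A count of 3 in a library equals 0.0477 to 0.1 CPM, a floor that covers counting error only, while the 95% intervals come from the edgeR fit and include the spread between libraries. No library pair held identical values, and all 37 chromosome M rows held 0 counts.

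The 8 members and the 14 other gene lists were chosen with earlier results of these data known. Named were the members, Tyrobp, Inpp5d and S100a8, up to 4 genes of each list with the smallest p in the averaged comparison and any called, and the 2 nearest profiles of each member. Alternatives were RLE and upper-quartile scaling, other filters, DESeq2 1.42.0, limma-voom (limma 3.58.1), fits on 2 groups, an additive model, covariates for neutrophil and immediate early transcripts, and libraries left out. The procedure was tested on simulated data. Some genes of the lists are not reported here.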

Additional observations from a re-analysis of the deposited data

Results flagged for a closer look

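Ccl9 differed in direction between the Inpp5d backgrounds. The log2 ratio of group means was -0.25 for Tyrobp-/-;NLGF over NLGF and 0.41 for the compound mutant over Inpp5d+/-;NLGF. The interaction term of the edgeR fit was 0.66 (SE 0.264, unadjusted p = 0.0318), and it did not pass after adjustment over all genes (adjusted p = 1).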

How the results depend on the processing

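No paired analysis was possible because the labels give no replicate number that groups share. Ccl6 was called with the same sign in all 21 alternatives in each of the 4 comparisons that called it. In Tyrobp-/-;NLGF against NLGF (1 of the 8 genes called), DESeq2 called 3, a fit on the compared groups 2, and leaving out 1 library 1 to 2, the additions being Ccl2 without Inpp5d+/-;NLGF replicate 2 and Ccl3 without its replicate 3. In the compound mutant against Inpp5d+/-;NLGF (1 called), DESeq2 called 3, and leaving out 1 library 1 to 2, with Ccl12 added without compound mutant replicate 2. In the averaged Tyrobp comparison (3 called), the neutrophil and the immediate early covariate each left 1, and leaving out 1 library gave 1 to 3, with 1 without either Tyrobp-/-;NLGF library. In the compound mutant against NLGF (2 called), DESeq2 called 4, a fit on the compared groups 1, either covariate 1, and leaving out 1 library 1 to 3. The remaining comparisons called 0 throughout. Of 1336 member fold changes under the alternatives none reversed while called. Over all genes the averaged comparison called 968, but 56 with the neutrophil covariate, 194 with the immediate early covariate and 2159 with DESeq2. The other Tyrobp comparisons called 176, 183 and 178, and 1035, 1042 and 1008 with DESeq2 and 10, 44 and 23 with the neutrophil covariate. Both covariates largely went with Tyrobp genotype, so calls lost with them cannot be told apart from lost precision. RLE and upper-quartile scaling moved the median of all genes by less than 0.1 (log2). Where 1 Tyrobp-/-;NLGF library is left out, the other is assumed to vary like the other groups. At counts of 0 to 348 for Ccl7 and 25 to 678 for Ccl5 the intervals include changes in both directions.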

Other observations

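For each member, the genes with the most similar profile over the 11 libraries were found by the root mean square difference of centred log2 CPM, among genes with a mean of at least 5 CPM. Nearest to Ccl6 were Hif1a, which encodes the oxygen-regulated transcription factor HIF-1 alpha (0.131), and Cd34 (0.187), where Ccl6 itself departed from its mean by 0.75. Its neighbour Ccl9 was far less similar (0.813), and was nearest to Gnl2 (0.117) and 2210016F16Rik (0.142). Ccl3 was nearest to Ankrd13a (0.119) and Rasgrp3 (0.166), and Ccl4 to Rassf1 (0.109) and Mlxipl (0.135), while Ccl3 and Ccl4 differed by 0.475. Ccl12 was nearest to Nav3 (0.228) and the interferon-inducible GTPase gene Igtp (0.238), and Ccl2 to Rreb1 (0.34) and Emp3 (0.344). The nearest genes of Ccl5, Wars2 (0.858) and Tubd1 (0.868), and of Ccl7, Abcg3 (1.27) and Pdss2 (1.32) were distant. Among the members themselves the smallest difference was between Ccl4 and Ccl9 (0.418). It was larger than the departure of either gene from its own mean (0.257 and 0.266). The small value thus goes with small changes in both genes and shows no shared course. These values describe the same libraries that the fits used.

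Other lists were read in the averaged Tyrobp comparison with the same edgeR fit. Of 24 genes for other chemokines and their receptors 16 were tested and 1 rose, Cxcr2 (adjusted p = 0.0127), which is also on the neutrophil list, and Cxcl16 did not pass (-0.65, adjusted p = 0.0897). None of the 3 atypical receptors tested of 5 passed. Of the 12 microglial markers 3 rose, Tmem119 (log2 fold change 0.65), P2ry13 (0.40) and Selplg (0.51). Of 10 markers of border-associated macrophages Colec12 fell, from 0.522 to 9.99 CPM in Tyrobp+/+ libraries to 0 to 0.0398 CPM in Tyrobp-/- libraries, and the summed level of the list was 68.8 to 141 CPM in Tyrobp+/+ and 124 to 227 CPM in Tyrobp-/- libraries. Of 6 tested lymphocyte and NK cell markers Klrb1c fell, from 0.621 to 11.8 CPM to 0 to 0.342 CPM. Of 5 tested vessel markers, Flt1 fell (6.08 to 15.8 CPM against 0 to 2.61 CPM) and Ly6c1 rose (0.0201 to 0.144 CPM against 0.207 to 3.72 CPM). Of 11 tested neuron and astrocyte markers none passed.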
